A study of Mus musculus with 12 samples.

Results

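Polyploid hepatocytes of aged mice were compared with polyploid hepatocytes of young mice, in 6 of the 12 RNA sequencing libraries of the series. The 6 libraries were taken by their titles: replicates 1 to 3 of aged polyploid hepatocytes, from C57BL/6 mice 27 months old, and replicates 1 to 3 of young polyploid hepatocytes, from C57BL/6 mice 3 months old. The other 6 libraries are the diploid hepatocytes of the same 3 young and 3 aged mice. Hepatocytes were freed by collagenase perfusion of the liver in 2 steps, and sorted on the Hoechst signal, which reads DNA content, and on the expression of a reporter that is not named in the sources used here. RNA was taken with Trizol and libraries were made with a SMART-Seq v4 Ultra Low Input kit. The groups compared share strain, cell type, ploidy and sort and differ in age alone as far as the labels say. Sex is not among the labels. Levels of Xist and of Y-linked genes, given below, had the pattern of female cells in all 6 libraries. Each group has 3 libraries (n = 3), and the p-values below measure the spread between these libraries.

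Most hepatocytes of an adult mouse are polyploid: they hold extra sets of chromosomes in 1 or more nuclei, formed mainly when cells divide their nuclei without dividing the cell. Hepatocytes also differ by their place between the portal vein and the central vein. Periportal cells make glucose and urea, and pericentral cells, which respond to Wnt signals from the central vein, make glutamine, bile acids and drug-metabolising cytochrome P450 enzymes. Many P450 and sulfotransferase genes of the mouse liver are also expressed at different levels in males and females, under control of the pattern of growth hormone release.

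The 6 libraries held between 17413153 (aged replicate 3) and 26572281 (young replicate 2) gene counts. Levels are given as CPM, a gene's share of the counts of its library scaled by TMM (trimmed mean of M-values) factors, in the order of replicates 1, 2 and 3. Where a library has no count of a gene, up to 0.184 CPM remains possible (3 counts, counting error alone). A log2 fold change is the fitted aged minus young difference, so positive values are higher in aged cells. Its standard error (SE) was worked back from the test, as the size of the difference over the square root of the F statistic. Albumin (Alb), which hepatocytes secrete into plasma, was at 43257, 41800.4 and 43357 CPM in the aged and 44598, 50664 and 46578 CPM in the young libraries. The summed level of 18 macrophage markers was between 35.5 and 176.6 CPM in aged and between 62.7 and 238.6 CPM in young libraries, that of 18 endothelial markers between 55.6 and 83.5 and between 66.5 and 153.2 CPM, and that of 15 stellate cell and fibroblast markers between 11.4 and 25.7 and between 15.3 and 43.8 CPM. T and NK cell markers summed to at most 1.05 CPM and neutrophil markers to at most 0.439 CPM in any library. The highest sums of macrophage markers were in aged replicate 2 and young replicate 3.

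Aged replicate 3 stood with the young libraries and not with the other aged libraries. On the first principal component of log2 CPM, which held 57.6% of the variance, the aged libraries were at -37.6, -42.5 and 24.9 and the young libraries at 30.1, 2.64 and 22.5. This order nearly followed a measure of gene length. The median deviation from the mean log2 CPM of 866 genes with under 1500 exon bases, less that of 2805 genes with over 5000, was -0.75, -0.84 and 0.67 in the aged and 0.59, -0.09 and 0.40 in the young libraries. The share of counts in long noncoding RNAs was highest in aged replicate 3 (0.772%) and young replicate 1 (0.798%), against 0.369% to 0.561% in the other 4. The part of this length axis in each age difference was not tested beyond a correction for exon length, whose counts are given with the results it moves.

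**Figure D1:**
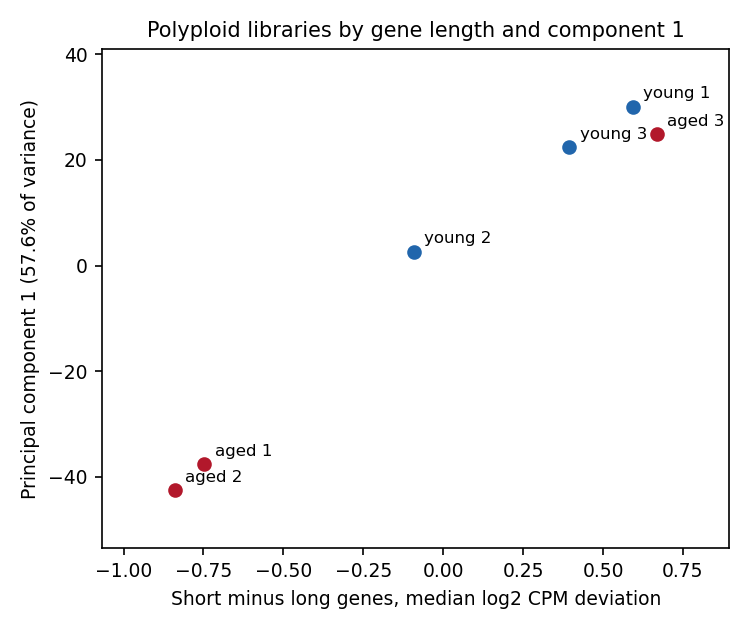
Each point is 1 polyploid library (red, aged; blue, young). The x axis is the median log2 CPM deviation of short genes minus that of long genes and the y axis is the first principal component; aged replicates 1 and 2 sit at the lower left, young replicate 2 between, and aged replicate 3, at 0.67 and 24.9, among young replicates 1 and 3.

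Of 12424 genes tested, 13 (0.105%) changed with age at an adjusted p under 0.05 in edgeR's quasi-likelihood test, 10 higher (0.0805%) and 3 lower (0.0241%) in aged cells. The higher genes were the cytochrome P450 genes Cyp2c39, Cyp2c38, Cyp3a44 and Cyp3a41a, the neighbouring chromosome 1 genes Gm4788 and Cfhr3, the peptidase gene Metap1d, the estrogen sulfotransferase gene Sult1e1, the natriuretic peptide receptor gene Npr2 and the kinase gene Camk1d. The lower genes were G6pdx (glucose-6-phosphate dehydrogenase), Cyp2d9 (a male-biased P450) and Cdh1 (E-cadherin). At an unadjusted p under 0.05 there were 1429 genes (11.5%), 943 higher (7.59%) and 486 lower (3.91%). The median log2 fold change of all genes tested was 0.03. In 2116 genes (17%) the groups did not overlap: 1161 (9.34%) had all 3 aged libraries above all 3 young ones and 955 (7.69%) lay the other way round. DESeq2 called 205 genes (1.65%), and edgeR with a correction for exon length, chosen after seeing the data, 25 (0.201%). The count rests on single libraries: without aged replicate 3 it was 1908 of 12886 genes (14.8%, 970 higher and 938 lower), and without aged replicate 1 or 2 or young replicate 1, 2 or 3 it was 8, 23, 4, 3 and 4. All 13 genes passed without aged replicate 3. Gm4788, Cyp2c39 and Metap1d passed in each of the 18 other settings tried, and each of the other 10 missed the threshold in 3 to 6 of them.

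**Figure D2:**
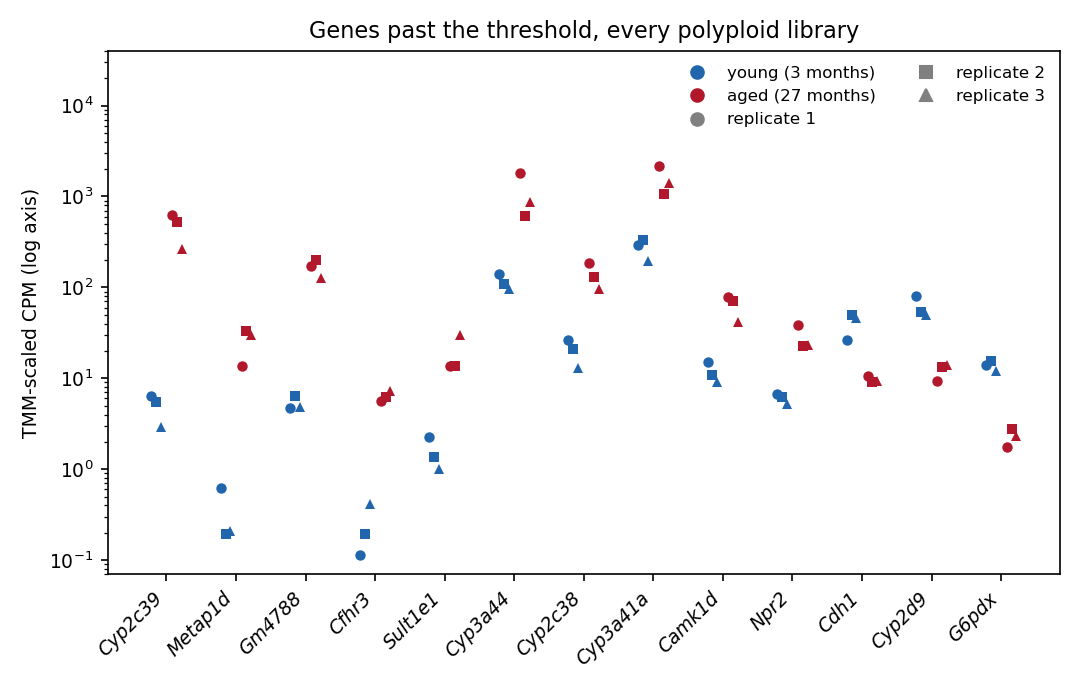
TMM-scaled CPM (log axis) of the 13 passing genes in the 3 young (blue) and 3 aged (red) polyploid libraries, with replicate numbers as shapes. No gene's groups overlap; Cyp2c39 lies at 263 CPM or above in aged and 6.32 CPM or below in young libraries.

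Cyp2c39 and Cyp2c38, drug- and retinoid-metabolising P450 genes that neighbour each other in the Cyp2c cluster, both rose. Cyp2c39 (chromosome 19, 39510862 to 39568529, GRCm38) was at 633, 524 and 263 CPM in aged and 6.32, 5.55 and 2.93 CPM in young libraries, a log2 fold change of 6.58 (SE 0.478, adjusted p = 0.00103). All 3 aged libraries were far above all 3 young ones, and aged replicate 3 was the lowest of the aged. Cyp2c38 (chromosome 19, 39389556 to 39463075) was at 185, 129 and 95.6 CPM in aged and 26.2, 21.2 and 13.1 CPM in young libraries, higher by 2.76 (SE 0.347, adjusted p = 0.027), again with no overlap. Of the 10 genes tested in a window reaching 500 kb to either side of Cyp2c39 these 2 passed, against 0.105% of all genes tested. Cyp2c29 differed by 0.33 (adjusted p = 0.614), Cyp2c67 by 0.32 (adjusted p = 0.591), Cyp2c40 by -0.81 (adjusted p = 0.434) and Cyp2c69 by 0.28 (adjusted p = 0.844), all 4 with groups that overlapped. Of the others, Cyp2c55 (-1.79, adjusted p = 0.364), Cyp2c37 (0.69, adjusted p = 0.415) and Cyp2c54 (0.21, adjusted p = 0.702) overlapped too, and Cyp2c68 had all aged below all young libraries (-0.41, adjusted p = 0.493). The transcripts of Cyp2c39 share 12% of their stretches of 50 bases with another gene, and those of Cyp2c38 share 7.45%, mostly with each other.

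The promoters of this pair are shown because the 2 neighbours, on opposite strands, rose together. The sequences are those of RefSeq on GRCm38.p6, 250 bases before to 50 bases after the RefSeq start site, from chr19:39463026-39463325 on the minus strand and chr19:39510572-39510871 on the plus strand, and the capitals mark the letters TATAAA.
Cyp2c38: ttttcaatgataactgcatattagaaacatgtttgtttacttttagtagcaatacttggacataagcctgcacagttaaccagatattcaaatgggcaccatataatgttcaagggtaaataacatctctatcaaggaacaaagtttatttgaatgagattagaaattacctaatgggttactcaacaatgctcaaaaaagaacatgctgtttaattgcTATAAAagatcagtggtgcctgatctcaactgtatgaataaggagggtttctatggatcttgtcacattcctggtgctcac
Cyp2c39: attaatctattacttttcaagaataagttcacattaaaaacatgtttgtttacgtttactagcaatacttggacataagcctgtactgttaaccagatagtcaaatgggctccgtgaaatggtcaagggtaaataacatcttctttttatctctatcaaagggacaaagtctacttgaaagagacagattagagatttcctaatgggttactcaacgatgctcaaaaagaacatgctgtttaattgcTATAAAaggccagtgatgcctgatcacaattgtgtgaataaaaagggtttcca
They are identical in 239 of 329 aligned columns (72.6%). TATAAA, searched on both strands, starts 31 bases before the RefSeq start of Cyp2c38 and 3 bases before that of Cyp2c39, and is found in 13.6% of 32841 mouse promoters of the same length. RefSeq lists 2 promoters for Cyp2c39, and the start used lies 40 bases before the gene start given above. For Cyp2c38 the starts are the same, so the difference in position depends on the start chosen.

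In the Cyp3a cluster, whose enzymes oxidise steroids and drugs, the genes on one side rose or were at higher values while Cyp3a11 was at lower ones. Cyp3a44 (chromosome 5, 145773983 to 145805874) was at 1801, 602 and 864 CPM in aged and 139, 108 and 96.7 CPM in young libraries and rose by 3.25 (SE 0.418, adjusted p = 0.0273). The 3 aged libraries were all above the young ones and replicate 1 was the highest. Cyp3a41a (chromosome 5, 145694049 to 145720136) was at 2153, 1074 and 1389 against 295, 329 and 194 CPM and rose by 2.496 (SE 0.335, adjusted p = 0.0307). Its near copy Cyp3a41b was at 885, 386 and 591 against 125, 101 and 56.8 CPM, a difference of 2.72 (adjusted p = 0.0535). These 2 genes can hardly be told apart with short reads: 98.6% of the 50-base stretches of Cyp3a41a occur in another gene and 93.7% in Cyp3a41b, so the level of each depends on how reads were assigned. For Cyp3a44 the shared part was 26.5%.

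Cyp3a16, further along the same strand, was at 143, 59.3 and 49.6 CPM in aged and 37.1, 21.97 and 18.5 CPM in young libraries, a difference of 1.70 (adjusted p = 0.27), with no overlap. Cyp3a11, the next gene after Cyp3a44 and the main drug-induced member in mouse liver, was at 1825, 5174 and 3891 CPM in aged and 12146, 6384 and 5972 CPM in young libraries, a difference of -1.17 (SE 0.419, adjusted p = 0.376). Its aged libraries were all below the young ones and replicate 1 was the lowest, which is the library with the highest Cyp3a44, Cyp3a41a and Cyp3a16. Cyp3a25 differed by 0.17 (adjusted p = 0.788) with overlap.

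The promoters of the 3 near copies are shown because the genes' levels stood apart by age in the same direction in all 6 libraries. They lie on the minus strand at chr5:145720087-145720386, chr5:145584681-145584980 and chr5:145805825-145806124 (RefSeq, GRCm38.p6), and capitals mark TATAAA and CAAAGTCCA, a form of the sequence that the hepatocyte factor HNF4A binds.
Cyp3a41a: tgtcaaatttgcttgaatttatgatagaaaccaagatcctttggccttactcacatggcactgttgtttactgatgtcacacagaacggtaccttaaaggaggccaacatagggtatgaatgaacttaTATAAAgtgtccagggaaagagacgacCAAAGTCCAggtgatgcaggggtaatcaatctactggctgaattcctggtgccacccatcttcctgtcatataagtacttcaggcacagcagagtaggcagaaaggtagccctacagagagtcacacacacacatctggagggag
Cyp3a41b: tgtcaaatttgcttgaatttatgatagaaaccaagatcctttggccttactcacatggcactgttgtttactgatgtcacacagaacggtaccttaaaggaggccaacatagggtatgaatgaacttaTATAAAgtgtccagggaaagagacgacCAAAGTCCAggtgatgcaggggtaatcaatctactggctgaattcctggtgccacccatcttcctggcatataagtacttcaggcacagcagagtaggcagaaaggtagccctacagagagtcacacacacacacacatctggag
Cyp3a44: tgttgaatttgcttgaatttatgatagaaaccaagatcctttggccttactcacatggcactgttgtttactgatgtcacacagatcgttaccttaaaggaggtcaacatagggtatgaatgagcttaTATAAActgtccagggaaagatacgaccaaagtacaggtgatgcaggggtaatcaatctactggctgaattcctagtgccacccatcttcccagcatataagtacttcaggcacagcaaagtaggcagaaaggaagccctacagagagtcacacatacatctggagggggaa
Cyp3a41a and Cyp3a41b are identical in 97% of aligned columns, Cyp3a41a and Cyp3a44 in 93% and Cyp3a41b and Cyp3a44 in 91.2%. TATAAA starts 122 bases before the start in all 3. CAAAGTCCA, searched on both strands, starts 95 bases before the start of Cyp3a41a and Cyp3a41b, is not found in the Cyp3a44 window and occurs in 0.475% of the 32841 promoters.

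Gm4788 and Cfhr3 lie in the same stretch of chromosome 1. Gm4788 (chromosome 1, 139697623 to 139781243) was at 172, 202 and 127 CPM in aged and 4.74, 6.40 and 4.87 CPM in young libraries and rose by 4.96 (SE 0.296, adjusted p = 0.000358), the smallest adjusted p of all genes tested. All 3 aged libraries were far above all 3 young ones. Cfhr3, annotated as an unprocessed pseudogene in the tables used here (chromosome 1, 139584783 to 139660899), was at 5.67, 6.23 and 7.24 CPM against 0.113, 0.193 and 0.419 CPM and rose by 4.69 (SE 0.498, adjusted p = 0.0142). Its young values are near the level that 3 counts give, so the fold has little depth behind it.

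The neighbouring genes Cfhr2 and F13b lay the same way without passing. Cfhr2 (chromosome 1, 139804167 to 139858702) was at 615, 664 and 649 CPM in aged and 287, 222 and 189.9 CPM in young libraries, a difference of 1.46 (SE 0.237, adjusted p = 0.08) with no overlap. F13b, the carrier subunit of coagulation factor XIII, differed by 0.64 (adjusted p = 0.357), also with no overlap. So did Zbtb41 (1.21, adjusted p = 0.27). The pseudogenes Gm16332 (0.12, adjusted p = 0.868), Gm5834 (0.37, adjusted p = 0.602) and Gm5837 (0.07, adjusted p = 0.97) overlapped between the ages. The potassium channel gene Kcnt2 overlapped too (-1.77, adjusted p = 0.471). Of the 50-base stretches of Gm4788, 18.9% occur in another gene, and 3.39% of those of Cfhr3 do.

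The promoters of the 3 most age-separated genes of the cluster are shown because they are copies of one another. They lie on the minus strand at chr1:139781190-139781489, chr1:139660957-139661256 and chr1:139858650-139858949 (RefSeq, GRCm38.p6), and capitals mark a match to TTCNNNGAA, the palindrome bound by STAT5, which acts downstream of the growth hormone receptor.
Gm4788: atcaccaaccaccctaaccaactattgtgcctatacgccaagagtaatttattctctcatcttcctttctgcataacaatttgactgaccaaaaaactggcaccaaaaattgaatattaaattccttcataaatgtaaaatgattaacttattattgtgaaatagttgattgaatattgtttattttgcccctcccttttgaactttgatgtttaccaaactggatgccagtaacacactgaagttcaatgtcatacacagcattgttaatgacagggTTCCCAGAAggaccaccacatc
Cfhr3: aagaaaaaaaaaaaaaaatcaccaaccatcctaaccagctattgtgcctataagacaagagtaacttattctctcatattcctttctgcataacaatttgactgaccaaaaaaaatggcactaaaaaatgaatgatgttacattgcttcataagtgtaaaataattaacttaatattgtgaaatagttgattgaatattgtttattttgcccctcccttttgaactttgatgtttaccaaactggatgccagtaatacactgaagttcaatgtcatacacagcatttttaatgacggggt
Cfhr2: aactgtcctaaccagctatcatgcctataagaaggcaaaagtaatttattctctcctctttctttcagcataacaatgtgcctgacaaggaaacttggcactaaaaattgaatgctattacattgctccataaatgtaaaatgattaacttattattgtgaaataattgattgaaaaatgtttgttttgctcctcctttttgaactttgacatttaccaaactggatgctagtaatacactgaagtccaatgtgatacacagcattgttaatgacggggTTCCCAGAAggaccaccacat
Gm4788 and Cfhr2 are identical in 84.4% of aligned columns, Gm4788 and Cfhr3 in 81.3% and Cfhr3 and Cfhr2 in 74.6%. The motif lies just after the start, from base 29 in Gm4788 and base 30 in Cfhr2, and occurs in 8.3% of the promoters. The Cfhr3 window ends at the first base of the aligned stretch, so this position was not searched in Cfhr3. These matches describe the windows and do not show binding.

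**Figure D3:**
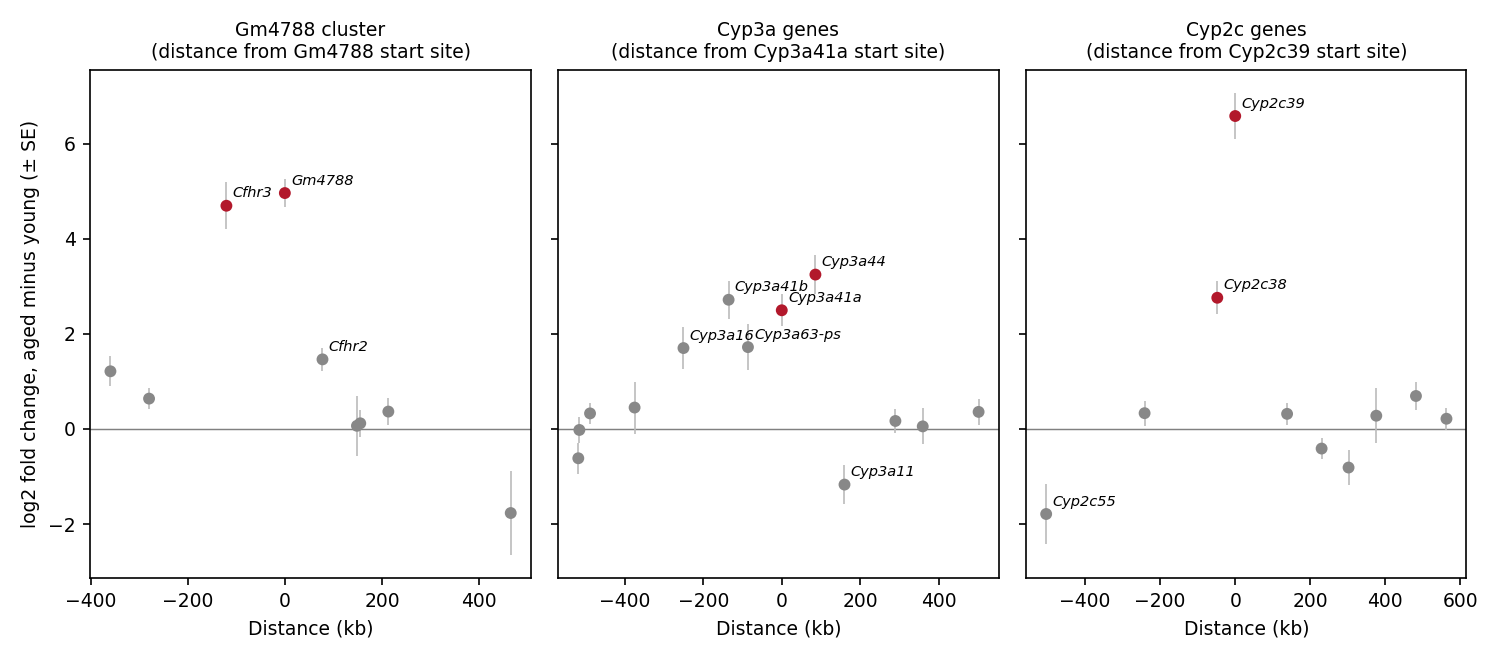
Log2 fold change (aged minus young, ± SE) of tested genes near 3 of the genes that rose. The x axis is the distance of each start site, in kb, from that of the gene named above each panel. Red points passed. The genes that passed are Gm4788 at 4.96 and Cfhr3 at 4.69, Cyp3a44 at 3.25 and Cyp3a41a at 2.496, beside Cyp3a41b at 2.72, which did not pass, and Cyp2c39 at 6.58 and Cyp2c38 at 2.76.

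Metap1d, which makes a mitochondrial enzyme that removes the first methionine of proteins, went from almost no reads in young to clear levels in aged cells. It (chromosome 2, 71453276 to 71525194) was at 13.5, 32.9 and 29.6 CPM in aged and 0.621, 0.193 and 0.209 CPM in young libraries, a log2 fold change of 6.25 (SE 0.545, adjusted p = 0.00346). All 3 aged libraries were far above the young ones, of which replicate 1 was the highest. Hat1, the nearest gene tested, was at 9.27, 16.1 and 10.4 against 10.4, 6.90 and 8.53 CPM (0.47, adjusted p = 0.542), and of 9 genes tested within 500 kb Metap1d alone passed. Rapgef4, whose start lies 528 kb away, was at 157, 127 and 86.6 against 49.4, 50.3 and 50.7 CPM (1.30, adjusted p = 0.164).

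Sult1e1, which inactivates estrogens by adding a sulfate group, was at 13.6, 13.8 and 29.8 CPM in aged and 2.26, 1.35 and 0.994 CPM in young libraries and rose by 3.64 (SE 0.446, adjusted p = 0.027). Aged replicate 3 was its highest library and the groups did not overlap. Npr2, the receptor of C-type natriuretic peptide, was at 38.3, 22.8 and 23.3 against 6.72, 6.24 and 5.29 CPM and rose by 2.21 (SE 0.279, adjusted p = 0.027). Camk1d, a calcium/calmodulin-dependent kinase, was at 77.5, 70.1 and 41.5 against 15.3, 10.8 and 9.001 CPM and rose by 2.43 (SE 0.315, adjusted p = 0.0273). Both stood apart by age in all libraries. None of the 50-base stretches of these 3 genes occurs in another gene.

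G6pdx, the X-linked gene of the enzyme that opens the pentose phosphate pathway and so supplies NADPH, fell. It (chromosome X, 74409483 to 74429194) was at 1.76, 2.79 and 2.33 CPM in aged and 13.9, 15.5 and 12.1 CPM in young libraries, a log2 fold change of -2.59 (SE 0.295, adjusted p = 0.0208). The aged values lay close together and far below the young ones. Ikbkg starts beside it on the opposite strand, and without a stated strand setting reads where they overlap cannot be assigned. Pgd, the gene of a later enzyme of the same pathway, was at 39.6, 42.1 and 39.4 CPM in aged and 57.2, 66.4 and 55.9 CPM in young libraries (-0.57, adjusted p = 0.368), again with no overlap.

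Cyp2d9, a steroid hydroxylase of male mouse liver, was at 9.27, 13.3 and 14.0 CPM in aged and 80.2, 53.7 and 49.2 CPM in young libraries and fell by 2.32 (SE 0.281, adjusted p = 0.027). Of its 50-base stretches 21.8% occur in other genes, most often in Cyp2d12 (6.76%). Cdh1, the adhesion protein of periportal hepatocytes, was at 10.5, 9.03 and 9.32 CPM in aged and 26.4, 49.6 and 46.3 CPM in young libraries and likewise fell, by 2.08 (SE 0.279, adjusted p = 0.0307). The lowest young library of each gene was above the highest aged one. Cdh1 is also an epithelial marker of bile duct cells. Among duct markers, Spp1 was at 18.8, 70.4 and 19.9 CPM in aged and 18.6, 16.1 and 12.2 CPM in young libraries (1.22, adjusted p = 0.402) and Sox9 at 8.70, 7.54 and 2.02 against 3.33, 5.40 and 2.77 CPM (0.67, adjusted p = 0.604).

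Some genes just missed the threshold. Cdh19, an adhesion gene, was at 2.72, 3.88 and 1.23 CPM in aged and at 0 in all 3 young libraries, at least 17.7-fold higher against 3 counts per library (adjusted p = 0.0541). Ehbp1l1 was at 10.1, 8.24 and 8.53 CPM in aged and 2.20, 1.62 and 2.46 CPM in young libraries (2.10, adjusted p = 0.0541). Pls1, an actin-bundling protein, was at 0.527, 1.05 and 0.245 against 6.21, 7.55 and 5.55 CPM (-3.36, adjusted p = 0.0541). All 3 had groups that did not overlap. In diploid cells, in edgeR's fit over all 12 libraries, their differences were 8.59, 3.00 and -3.19, each at an adjusted p of 0.049. Aged diploid replicates 1 and 2 were rich in markers of other cell types, as given below. A1bg, a plasma glycoprotein gene that is female-biased in mouse liver, varied widely between libraries of one age. It was at 2893, 460.2 and 714 CPM in aged and 14.7, 18.2 and 106 CPM in young libraries (4.87, SE 0.982, adjusted p = 0.167). The groups did not overlap, but aged replicate 1 was several times above the other aged libraries. The diploid difference of A1bg in the same 12-library fit was 4.45 (adjusted p = 0.0675).

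Genes known as female-biased in mouse liver leaned upward and male-biased genes were mixed. Of 25 tested female-biased genes 3 rose (Cyp2c39, Cyp3a44 and Cyp3a41a), none fell, 8 had all aged libraries above all young ones (32%, against 9.34% of all genes tested) and the median log2 fold change was 0.76, against 0.03 for all genes. The median was 0.28 without aged replicate 1. Cyp2b13, Cyp2b9, Sult2a1 and Cyp17a1, also in the list, had differences of -0.67, -0.21, -0.04 and -0.01. Of 20 tested male-biased genes Cyp2d9 fell and none rose, and the median was 0.29. Over all genes tested 0.0805% rose and 0.0241% fell. All aged libraries lay above all young ones in 4 male-biased genes (20%, against 9.34%) and below in 5 (25%, against 7.69%). The summed level of the whole male-biased list of 29 was between 1222 and 1574 CPM in aged and between 1621 and 1663 CPM in young libraries. Serpina1e, a secreted antiprotease, was at 78.9, 55.2 and 50.9 CPM in aged and 206, 202 and 123 CPM in young libraries (-1.52, adjusted p = 0.149), while Elovl3, a fatty acid elongase, was at 3.51, 2.88 and 8.47 against 0.791, 1.39 and 1.99 CPM (1.82, adjusted p = 0.327). Xist, the noncoding RNA of the inactive X chromosome, was at 16.6, 81.2 and 49.1 CPM in aged and 39.8, 25.2 and 21.6 CPM in young libraries, and the Y-linked genes Ddx3y, Eif2s3y, Kdm5d and Uty were at 0.0771 CPM or below in every library, under the level of 3 counts. This is the pattern of female cells, in the libraries of both ages.

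Of 13 tested genes of the growth hormone pathway none passed, and the median was 0.37. Cish, an inhibitor induced by STAT5, was at 18.6, 17.96 and 11.7 CPM in aged and 35.7, 31.1 and 20.3 CPM in young libraries (-0.85, adjusted p = 0.357), and Jak2, the kinase of the receptor, at 12.04, 11.7 and 5.95 against 7.11, 4.74 and 3.45 CPM (0.96, adjusted p = 0.399).

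Pericentral genes were at higher and periportal genes at lower values in aged polyploid cells, with 1 single gene past the threshold. Among 28 tested pericentral genes 25 had a positive difference, 10 had all aged above all young libraries (35.7%, against 9.34% of all genes), none lay the other way round, none passed, and the median was 0.72. Among 27 periportal genes 22 had a negative difference, 13 had all aged libraries below all young ones (48.1%, against 7.69% of all genes), none lay above, Cdh1 alone passed and the median was -0.41. The medians were 0.73 and -0.42 without aged replicate 3, where 9 pericentral genes rose and 7 periportal genes fell, with 1 periportal gene higher. In that fit 7.53% of all genes tested were called higher and 7.28% lower. In bulk RNA, more cells of one zone in the sort and more RNA of these genes per cell cannot be told apart.

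Slc1a2, the glutamate transporter of the cells next to the central vein, was at 172, 30.2 and 68.2 CPM in aged and 14.2, 7.25 and 9.94 CPM in young libraries (3.11, SE 0.584, adjusted p = 0.149). Avpr1a, the liver vasopressin receptor, was at 46.5, 39.3 and 28.5 against 13.8, 15.3 and 7.48 CPM (1.64, adjusted p = 0.149). Cyp7a1, the rate-limiting enzyme of bile acid synthesis, was at 348, 378 and 203 against 86.1, 35.1 and 11.5 CPM (2.81, adjusted p = 0.202). In these 3 genes the lowest aged library was above the highest young one, although none passed. The classical pericentral genes Glul (glutamine synthetase) at 392, 118 and 213 against 158, 90.8 and 119 CPM and Cyp2e1 (ethanol oxidation) at 4708, 2779.7 and 5888 against 3099, 3284 and 2724 CPM overlapped between the ages, with differences of 0.97 and 0.55 (adjusted p = 0.421 and 0.491).

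All 10 tested Wnt target genes had positive differences, with a median of 1.22, and 5 of them had all aged above all young libraries (50%, against 9.34% of all genes tested), while none passed. Several of them are also in the pericentral list. Tbx3, a transcription factor of pericentral cells, was at 23.9, 25.1 and 11.2 CPM in aged and 6.72, 5.01 and 3.09 CPM in young libraries (2.02, adjusted p = 0.155). Rnf43, a brake on Wnt receptors, was at 13.7, 15.7 and 12.02 against 7.57, 5.20 and 2.15 CPM (1.47, adjusted p = 0.299), and Lgr5, the receptor of R-spondins, at 6.54, 4.45 and 2.76 against 1.36, 2.31 and 0.419 CPM (1.73, adjusted p = 0.357). Nkd1 (1.94) and Tcf7 (1.53) were also apart in all libraries. Axin2, too low to be tested, was at 0.835, 1.22 and 0.307 CPM in aged and 0.282, 0.231 and 0.105 CPM in young libraries.

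On the periportal side, Ass1, a urea cycle enzyme, was at 1115, 951 and 1502 CPM in aged and 3189, 1908 and 2316 CPM in young libraries (-1.06, adjusted p = 0.285). Sds, which turns serine into pyruvate, was at 402, 433 and 535 against 941, 663 and 1107 CPM (-0.98, adjusted p = 0.28), and Cyp2f2, a P450 of periportal cells, at 1530.0, 1718 and 1141 against 1932, 3266 and 2958 CPM (-0.89, adjusted p = 0.342). For each, the highest aged library was below the lowest young one. Apoa4, an apolipoprotein, at 56.8, 96.1 and 123 against 209, 234 and 210.4 CPM (-1.25, adjusted p = 0.248) and Gls2, the liver glutaminase, at 573, 428 and 663 against 931, 821 and 1038 CPM (-0.74, adjusted p = 0.353) lay the same way. Other periportal genes lay nearer to 0: Cps1 differed by 0.06, Pck1 by -0.18 and Hsd17b13 by -0.05.

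**Figure D4:**
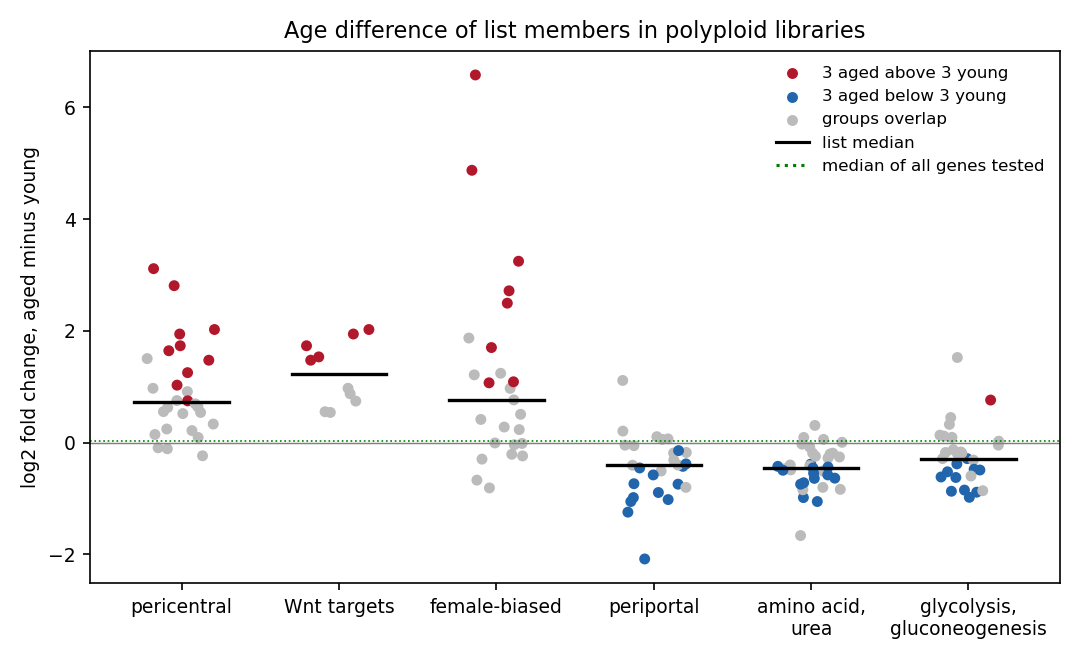
Each point is 1 tested gene, by list (x axis) and by log2 fold change, aged minus young (y axis); colours mark genes whose 3 aged libraries all lie above (red) or below (blue) the 3 young ones, black bars are list medians and the dotted line is the median of all genes. Pericentral, Wnt target and female-biased genes centre at 0.72, 1.22 and 0.76, and periportal, amino acid and urea, and glucose genes at -0.41, -0.45 and -0.29.

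Genes of amino acid and urea metabolism shared the periportal direction, and Ass1 and Sds, given above on the periportal side, are among them. None of 34 tested genes passed, 30 had a negative difference, 13 had all aged below all young libraries (38.2%, against 7.69% of all genes), none lay above, and the median was -0.45. Without aged replicate 3, 10 of them fell, in a fit where 7.28% of all genes did. Of 29 genes of glycolysis and gluconeogenesis none passed, 21 had a negative difference, 11 lay wholly below (37.9%, against 7.69%), 1 lay wholly above and the median was -0.29. With no scaling factors that median was -0.11. Eno1 (enolase) was at 699.5, 629.9 and 725 CPM in aged and 1124, 1131 and 1448 CPM in young libraries (-0.85, adjusted p = 0.27), Gpi1 (glucose-6-phosphate isomerase) at 143, 153 and 139 against 205, 307 and 284 CPM (-0.87, adjusted p = 0.28) and Gapdh at 995, 1124 and 1332 against 1937, 1928 and 2523 CPM (-0.89, adjusted p = 0.28).

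Among 29 genes of fatty acid and triglyceride synthesis G6pdx was the one that passed, and 20 of the 29 had a negative difference, with a median of -0.24. Thrsp, which promotes lipid synthesis, was at 104, 173 and 194 CPM in aged and 768, 354 and 351 CPM in young libraries (-1.64, adjusted p = 0.219). Srebf1, the transcription factor of lipid synthesis, was at 161, 112 and 63.3 against 258, 248 and 161 CPM (-0.99, adjusted p = 0.371), and Acss2, which makes acetyl-CoA, at 453, 485 and 373 against 981, 820.2 and 594 CPM (-0.87, adjusted p = 0.332). For these 3 genes the groups did not overlap. Genes of cholesterol synthesis (25 tested, median 0.00) and of fatty acid oxidation (39 tested, median 0.01) had medians near that of all genes, and none passed. Among the cholesterol genes 0 lay wholly above and 4 wholly below (16%, against 7.69% of all genes tested). Among the oxidation genes 5 lay wholly above (12.8%, against 9.34%) and 2 wholly below (5.13%). Pdk4, which turns cells from glucose to fatty acid oxidation, was at 21.5, 16.4 and 10.6 CPM in aged and 4.97, 4.74 and 3.09 CPM in young libraries (1.92, adjusted p = 0.107), and Fabp4, a fatty acid carrier of fat cells and macrophages, at 0.527, 0.305 and 0.368 against 2.43, 2.12 and 4.24 CPM (-2.85, adjusted p = 0.128), with no overlap in either.

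Of 28 bile acid genes none passed and 21 had a positive difference, with a median of 0.25. Besides Cyp7a1, Slco1b2, an uptake transporter, was at 1521, 1291 and 1076 CPM in aged and 698, 556 and 478 CPM in young libraries (1.17, adjusted p = 0.178), and Cyp7b1, of the alternative synthesis route, at 43.7, 19.4 and 23.4 against 12.7, 10.1 and 10.5 CPM (1.38, adjusted p = 0.236). Neither overlapped between the ages. In drug metabolism, 4 of 47 phase 1 genes rose and Cyp2d9 fell, against 0.0805% and 0.0241% of all genes, and of 40 conjugation and transport genes none passed. The aldehyde oxidase genes Aox1 and Aox3 were at 50.7, 39.3 and 26.5 against 13.1, 13.6 and 11.3 CPM (1.62, adjusted p = 0.0925) and at 177, 175 and 107 against 67.8, 63.4 and 60.4 CPM (1.26, adjusted p = 0.167), both without overlap. Ugt3a1, a conjugating enzyme, was at 148, 78.6 and 96.0 against 33.8, 29.9 and 43.6 CPM (1.59, adjusted p = 0.137).

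Hamp2, a relative of the iron hormone hepcidin, was at 33.8, 21.5 and 171 CPM in aged and 935, 427 and 717 CPM in young libraries, a log2 fold change of -3.20 (SE 0.732, adjusted p = 0.219). Every young library was above every aged one, and aged replicate 3 was the highest of the aged. Among 21 genes of iron and metal handling none passed and the median was 0.07. Dbp, an output gene of the circadian clock, was at 0.220, 1.13 and 0.552 against 8.07, 9.90 and 5.08 CPM (-3.58, SE 0.564, adjusted p = 0.0759). Per1, a clock repressor, was at 0.571, 0.654 and 0.920 against 2.26, 1.12 and 2.72 CPM (-1.50, adjusted p = 0.357), and Arntl, its activator, at 32.2, 20.3 and 15.6 against 11.1, 14.0 and 13.1 CPM (0.83, adjusted p = 0.361), both without overlap. None of 21 clock genes passed, and the time of day at which livers were taken is not among the labels.

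No tested gene of the DNA damage, senescence, interferon and cell cycle lists passed. Of 25 tested p53 and DNA damage genes the median was 0.37. In 3 of them the aged libraries lay wholly above (12%, against 9.34% of all genes tested) and in 3 wholly below (12%, against 7.69%). Of 14 senescence genes the median was -0.15. Cdkn1a, the p53 target p21, was at 9.71, 10.7 and 8.22 CPM in aged and 13.4, 8.86 and 14.1 CPM in young libraries (-0.34, adjusted p = 0.607), with overlap. Eda2r, a p53-responsive receptor, was at 0.791, 3.18 and 0.613 against 0.339, 0.231 and 0.262 CPM (2.46, adjusted p = 0.342) and Sesn2, a stress-induced p53 target, at 8.30, 5.23 and 4.11 against 10.8, 14.3 and 12.7 CPM (-1.09, adjusted p = 0.32), the 2 without overlap in opposite directions. Glb1, the senescence-associated galactosidase, was at 15.02, 15.6 and 13.6 against 9.49, 6.86 and 12.6 CPM (0.61, adjusted p = 0.433), without overlap. Of 37 interferon response genes 25 had a positive difference (median 0.41). Xaf1 was at 5.36, 19.1 and 6.81 against 1.86, 2.89 and 4.76 CPM (1.72, adjusted p = 0.342), and aged replicate 2, the aged library with the highest macrophage marker sum, was its highest.

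Cell cycle genes were high in 1 aged library. Of 25 tested genes 20 had a positive difference, with a median of 0.76, and the summed level of the whole list of 35 was 164.3, 333.1 and 169.6 CPM in the aged and 196.7, 163.9 and 180.1 CPM in the young libraries. Ccnb1, the mitotic cyclin, was at 1.49, 15.5 and 0.0613 CPM in aged and 0.452, 0.886 and 0.0523 CPM in young libraries, Mki67 at 0.351, 3.40 and 0 against 0.734, 0.116 and 0.105 CPM and Cdk1 at 0.966, 6.32 and 0.675 against 2.09, 0.694 and 0.942 CPM. Aged replicate 2 was the highest library for all 3, and the groups overlapped. For Cdk1 the difference was 1.12 with all libraries and -0.57 without that one. Mcm4, of the replication helicase, was at 3.78, 6.67 and 2.64 against 1.24, 1.08 and 1.36 CPM (1.83, adjusted p = 0.256), without overlap.

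No gene of the cytosolic ribosome or of respiration passed. Their median exon length was 1752 bases for the ribosome and 2045.5 for nuclear genes of respiration, against 3707 over all genes tested. All 34 cytosolic ribosomal protein genes had a negative difference (median -0.35), but none of them separated the ages: their summed level was 2906 and 2596 CPM in aged replicates 1 and 2, 6915 CPM in aged replicate 3 and 6059, 3973 and 5607 CPM in the young libraries. Nuclear genes of oxidative phosphorylation (34 tested, 32 negative) had a median of -0.54 and 8 of them lay wholly below (23.5%, against 7.69% of all genes). Their summed level was 11040, 9628 and 18610 CPM in aged and 19980, 17070 and 20420 CPM in young libraries. Cyc1, a subunit of complex III, was at 315, 287 and 495 CPM in aged and 685, 544 and 621 CPM in young libraries (-0.76, adjusted p = 0.369). All 13 protein genes of the mitochondrial genome had a negative difference (median -0.56) with overlap. These medians rest on single libraries. Without aged replicate 3 they were -0.91, -0.98 and -1.06 for the ribosomal, nuclear and mitochondrial lists, and 25 of 34, 25 of 34 and 2 of 13 genes fell, where 7.28% of all genes did. The ribosomal median was -0.14 without aged replicate 1, -0.095 without aged replicate 2 and -0.54 without young replicate 2. The mitochondrial one was -0.27 and -0.34 without aged replicate 1 or 2, -0.16 without young replicate 1 and -0.87 without young replicate 2. With the exon length correction the 3 medians were -0.24, -0.48 and -0.24.

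The diploid cells of the same mice were read beside the polyploid ones, in a fit over all 12 libraries. In that fit 552 of 14061 genes (3.93%) changed with age in diploid cells. Aged diploid replicates 1 and 2 also had the highest levels of markers of other cell types: those of endothelial cells summed to 1625 and 3972 CPM, of stellate cells and fibroblasts to 727 and 3146 CPM, and of B and plasma cells to 494.5 and 906 CPM, against at most 275, 216 and 35.7 CPM in the other 4 diploid libraries. Of 61 tested genes of the macrophage, endothelial, stellate, B cell and MHC class II lists, 40 were among those higher in aged diploid cells. The part of these cell types in the age changes of diploid cells was not tested. Among the 13 genes, 12 had the same sign in diploid as in polyploid cells and 8 passed in diploid cells. Cyp2c39 was at 239, 76.2 and 234 CPM in aged and 6.67, 8.91 and 5.16 CPM in young diploid libraries (4.73, SE 0.545, adjusted p = 0.0122), Metap1d at 13.8, 15.2 and 19.8 against 0.284, 0.0411 and 0.0385 CPM (7.08, SE 0.705, adjusted p = 0.00513) and Gm4788 at 141, 38.7 and 179.8 against 6.24, 13.4 and 6.94 CPM (3.75, SE 0.524, adjusted p = 0.049). The ages did not overlap in diploid cells for any of these 3. Cfhr3 (3.57), Camk1d (1.89), Npr2 (1.62), Cyp2d9 (-2.94) and Sult1e1 (3.09) also passed in diploid cells, each at an adjusted p of 0.049 or, for Sult1e1, 0.0492. Cyp3a44 (2.43, adjusted p = 0.0664) and Cdh1 (-1.45, adjusted p = 0.0715) did not. Cyp2c38 and Cyp3a41a had diploid differences of 0.95 (adjusted p = 0.35) and 1.153 (adjusted p = 0.254), against 2.77 and 2.51 for polyploid cells in the same fit.

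G6pdx was the gene with the opposite sign. It was at 30.4, 130.0 and 6.98 CPM in aged and 19.1, 28.0 and 16.5 CPM in young diploid libraries, an age difference of 1.40 (adjusted p = 0.31). The age change in polyploid less that in diploid cells was -3.97 (SE 1.04, adjusted p = 0.251, or 0.137 in a fit blocked on the mouse). When aged diploid replicates 1 and 2 were left out it was -0.96. Those 2 libraries carried macrophage markers at a summed 5607 and 24552 CPM, against 708.7 to 1275 CPM in the other 4 diploid libraries, and their part in this difference was not tested beyond that. Of 14061 genes in the test of the difference between fractions, edgeR called 0 (1545 at an unadjusted p under 0.05), and 189 (1.34%, 2 positive and 187 negative) with the mouse as a block, while DESeq2 called 489. Of the 187 negative ones with the block, 25 were among the 61 genes of the macrophage, endothelial, stellate, B cell and MHC class II lists, such as Cdh5 (endothelial, adjusted p = 0.0314), Ecm1 (stellate, adjusted p = 0.0361) and H2-Aa (MHC class II, adjusted p = 0.0227). None of the 13 genes passed in edgeR's test or with the block. G6pdx did with DESeq2 (adjusted p = 0.00835), with no filter on low counts (0.000699) and without aged diploid replicate 3 (0.00618).

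**Figure D5:**
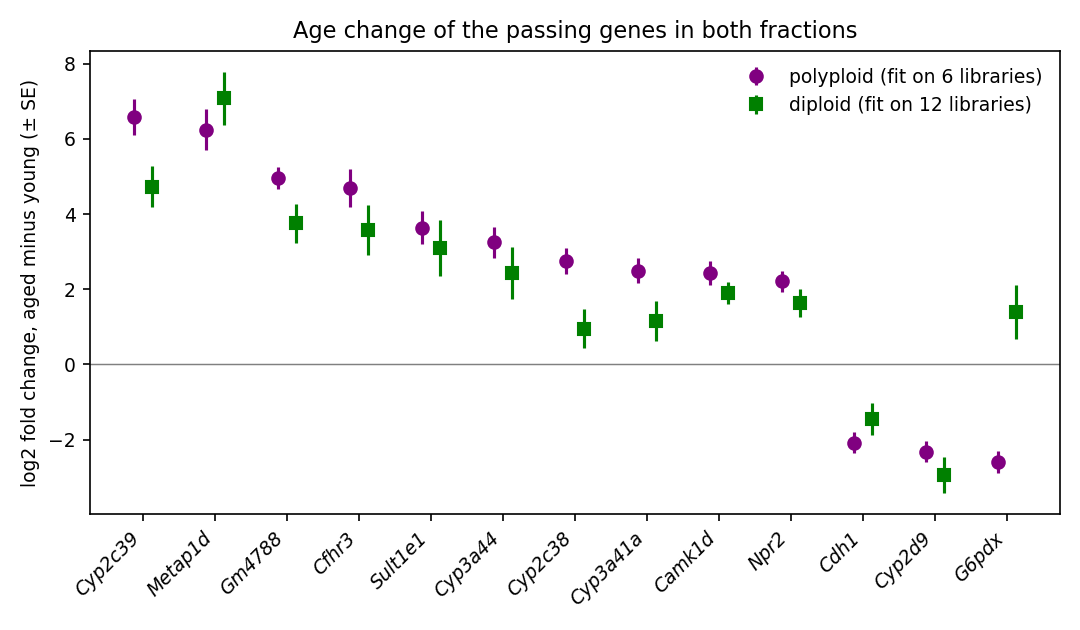
Log2 fold change with age (aged minus young, ± SE) of the 13 genes in polyploid cells (purple, 6 libraries) and diploid cells (green, 12-library fit). The 2 fractions have the same sign except for G6pdx, at -2.59 in polyploid and 1.40 in diploid cells.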

How the data were processed

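The deposited values are whole-number counts per gene for 49315 gene IDs, 1 featureCounts table per library per the file headers. The submitters' processing notes name Trimmomatic 0.36, STAR 2.5.2b, featureCounts (Subread 1.5.2) and the builds GRCm38 and mm10. The annotation release and the strand setting the authors used are not given there. From the reference annotation 48970 IDs were named and 345 were not (0.0213% of the polyploid counts), 99.91% of named genes overlapped their reference position, and symbols shared by several IDs (132 IDs) were replaced by the ID.

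Samples were grouped by title. Polyploid age differences (aged minus young) were tested in R 4.3.3 with edgeR 4.0.16 (TMM scaling, filterByExpr, quasi-likelihood F test) on the counts of the 6 polyploid libraries alone. The filter kept 12424 of 22388 genes with a count, and the threshold was a Benjamini-Hochberg adjusted p under 0.05 over all genes tested. The difference between fractions was the interaction of age and ploidy over 12 libraries. In data simulated for the polyploid comparison (12213 genes) 12% of genes changed 2-fold and 93% of genes changed 4-fold were recovered, and for the interaction (13878 genes) 0% and 9%. The changed genes had a mean of at least 5 CPM, and each gene was drawn independently. The simulation thus lacks the shared axis that set aged replicate 3 with the young libraries, and its shares need not hold for the real data. Reads carry no molecular identifiers, so floors cover counting error only.

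The members, the 47 gene lists and the tests were chosen with earlier results of these data known. Named genes were the 12 largest changes and 10 smallest p in each direction of those past the threshold, where the higher group averaged 10 CPM or more, the groups did not overlap and the symbol was no model name. Up to 4 passing members of each list were added, or 2 of smallest p as values where none passed, and a set of 13 genes always given. Gm4788, Cfhr3, Cyp3a41b, Cyp3a16, Cyp3a11, Cyp3a25, the other neighbours within clusters, Cdh19, Ehbp1l1, Pls1, A1bg, Serpina1e, Elovl3, Lgr5, Nkd1, Tcf7, Gls2, Gapdh, Pgd, Thrsp, Srebf1, Acss2, Cyp7b1, Aox1, Aox3, Per1, Arntl, Ccnb1, Rapgef4, Tmem45b, Naip2, Gt(ROSA)26Sor and Kcnt2, the Y-linked genes and list members given by their difference alone were named after their values were seen.

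Replicate numbers name different mice in the 2 ages, and deviations of same-numbered libraries correlated with r = -0.414, 0.390 and 0.157, so they were not taken as pairs; between fractions they were taken as the mouse. Alternatives were other scalings and filters, DESeq2 1.42.0, limma 3.58.1 (voom), robust dispersions, all 12 libraries in 1 fit, the number as a block and each library left out. Promoters are those of the RefSeq table (GRCm38.p6), matched by symbol. Some genes are not reported here.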

Additional observations from a re-analysis of the deposited data

How the results depend on the processing

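The count of 13 genes past the threshold was between 12 and 17 with RLE, upper quartile or no scaling factors, a mean CPM of at least 5, limma voom and robust dispersions. It was 429 with no filter on low counts, 205 with DESeq2, 5 with all 12 libraries in one fit, and 42 with the replicate number as a block, which here pairs different mice. Leaving out each library in turn gave 3 to 1908, the highest without aged replicate 3. Chosen after seeing the data, the exon length correction gave 25 and leaving out aged replicate 3 with young replicate 1 gave 1064. All 13 genes were among those called in each of these but the fit without scaling factors (12), that with a mean CPM of at least 5 (12, with Cfhr3 filtered out), the 12-library fit (4) and the single libraries left out (3 to 13). No scaling factors moved the median of all genes from 0.03 to 0.20. The count of 0 for the difference between fractions became 690 with no filter, 489 with DESeq2, 189 with the mouse as a replicate block, and 0 to 762 with each library left out, 762 without aged diploid replicate 3. Of the single-gene values, these turned in sign, none of them called. With libraries left out in turn Ecm1 ran from -0.99 to 0.15, Colec11 from -1.14 to 0.14, H2-Ab1 from -1.04 to 0.17 and Dcn from -0.88 to 0.20 (each highest without young replicate 3), Afp from -0.56 to 0.058 (without aged replicate 3) and Cdk1 from -0.57 (without aged replicate 2) to 1.70. With no scaling factors Alb was at 0.023. For the difference between fractions Sult1e1 ran from -0.15 (without young diploid replicate 2) to 1.46 and Cdh1 from -0.94 to 0.047 (without aged diploid replicate 3), and without aged diploid replicates 1 and 2 Sult1e1 was at -0.37 and Cyp2d9 at -0.20. Of the list medians, the female-biased one ran from 0.28 (without aged replicate 1) to 1.06 (without young replicate 1), and was 1.08 without both noncoding-rich libraries; the oxidative phosphorylation one was -0.98 without aged replicate 3 and -0.95 without both. The cause of these shifts was not tested. Depth limits genes near 3 counts, such as Cfhr3 and Metap1d in young libraries.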

Other observations

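Several gene groups that the comparison above did not describe had no passing member, and their values are given here. Of 26 hepatocyte transporter and channel genes 18 had a positive difference (median 0.36), and Slc13a3, a carrier of dicarboxylates, was at 28.9, 14.5 and 9.63 CPM in aged and 5.82, 4.47 and 4.87 CPM in young polyploid libraries (1.81, adjusted p = 0.195), without overlap. Of 17 tested major urinary protein genes, which carry pheromones, 15 had a positive difference (median 0.42). In 1 of them the aged libraries lay wholly above (5.88%, against 9.34% of all genes tested) and in 0 wholly below. The summed level of the whole list of 22 overlapped, between 3069 and 4542 CPM in aged and between 3472 and 5448 CPM in young libraries. Mup19 was at 2.42, 2.40 and 4.97 against 0.452, 0.462 and 0.994 CPM and Mup15 at 53.4, 16.6 and 332 against 2.32, 13.8 and 35.0 CPM; for Mup15 aged replicate 3 was far above all other libraries and the groups overlapped. Gstt3, a glutathione transferase, was at 166, 147 and 161 against 323, 377 and 321 CPM (-1.11, adjusted p = 0.149). Trib3, a stress-induced pseudokinase, was at 4.66, 6.37 and 8.89 against 14.9, 30.1 and 17.7 CPM (-1.66, adjusted p = 0.177). Neither Gstt3 nor Trib3 overlapped between the ages. Of 15 tested MHC class I genes 11 had a negative difference (median -0.19), with H2-K1 at 1145, 1142 and 989 against 1359.7, 1449 and 1456 CPM (-0.38, adjusted p = 0.494). Of 41 acute phase and complement genes 25 had a positive difference (median 0.08). In 1 of the 41 the aged libraries lay wholly above (2.44%, against 9.34% of all genes tested) and in 6 wholly below (14.6%, against 7.69%). Orm3, an acute phase protein, was at 9.27, 14.9 and 13.4 against 21.1, 51.0 and 25.0 CPM (-1.37, adjusted p = 0.27).

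Some genes were nearly silent at one age. Tmem45b was at 1.14, 0.610 and 1.10 CPM in aged and 0 in all young libraries, at least 6.46-fold higher against 3 counts per library (adjusted p = 0.113). Naip2, a receptor of the inflammasome, was at 1.58, 1.96 and 3.25 against 0.0565, 0 and 0.157 CPM (4.97, adjusted p = 0.0936). In diploid cells, in edgeR's fit over all 12 libraries, Naip2 differed by 3.80 (adjusted p = 0.049) and Tmem45b by 2.78 (adjusted p = 0.205). The noncoding RNA of Gt(ROSA)26Sor, the locus into which many mouse reporters are inserted, was at 2.24, 2.57 and 5.15 CPM in aged and 0.621, 0.231 and 0.0523 CPM in young libraries (3.46, SE 0.736, adjusted p = 0.177). Gt(ROSA)26Sor passed in diploid cells, in the same fit over all 12 libraries, with a difference of 4.14 (adjusted p = 0.049). Every aged diploid library was above every young diploid one for this RNA. The reporter of the sort and its locus are not named in the sources used here. Kcnt2, a potassium channel gene in the region of Gm4788, was at 2.88, 47.2 and 5.44 CPM in the young libraries, with replicate 2 far above the others, and at 4.35, 7.98 and 3.99 CPM in the aged ones.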
